A study of Caenorhabditis elegans with 6 samples.

Results

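The genes described here carry the rpl and rps names given to cytosolic ribosomal proteins in Caenorhabditis elegans. They were taken by name: every microarray feature whose gene symbol was a single rpl or rps symbol followed by a number was kept, and for a gene with several such features, called probe sets, the brightest by mean log2 intensity over the 6 arrays stood for the gene. This gave 74 genes of 17144 that the array names alone on a feature, 43 named for the large subunit (rpl) and 31 for the small subunit (rps), measured by 111 probe sets. The count by name includes rpl-24.2, whose counterparts in yeast and human are not parts of the finished ribosome. The symbols are those of the array's annotation, and 73 of the 74 genes matched the RefSeq gene table of assembly WBcel235. In 14 of them the current symbol differs, and it is given in brackets where such a gene is described.

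The cytosolic ribosome joins a small subunit, which reads the messenger RNA, to a large subunit, which forms the peptide bond and passes the growing chain through an exit tunnel. Each subunit is built on ribosomal RNA in the nucleolus with the help of assembly factors, so that ribosomal proteins are needed in matched amounts and their messenger RNAs are among the most abundant of a growing animal. C. elegans embryos start with ribosomes and messenger RNAs laid down by the mother and can hatch on that store.

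The study asked how loss of a microRNA cluster alters gene expression in embryos. The mutant embryos carried mir-35-41(nDf50), a deletion of mir-35 to mir-41, microRNAs of a family expressed in oocytes and early embryos, and came from strain VT2935 without the array nEx1187. The control embryos were wild type N2. All cultures were grown at 20 °C on NGM plates with chicken egg yolk, mixed-stage embryos of the whole body were freed from mixed-stage cultures with hypochlorite, and total RNA was taken with Trizol, amplified and biotin-labelled. There were 3 arrays of mutant embryos and 3 of wild type embryos. Nothing in the sample descriptions says that the replicates came from separate cultures, so a p-value here reflects how far the 6 samples spread, and that spread may be technical. A stage line in some descriptions uses terms that are not those of nematode embryos and was not used. In whole embryos, fewer cells of a type and less RNA per cell cannot be told apart.

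The deposited intensities covered 22625 features, of which 22548 were tested after 77 array controls were left out. On 5 of the 6 arrays the brightest features had nearly the same level, with a 99th percentile between 12.39 and 12.42 on the log2 scale, but wild type replicate 3 stood at 13.13 while its median feature was dimmer, 6.29 against 6.43 to 6.56. The correlation over all features was 0.998 between mutant replicates 2 and 3, the closest pair, and 0.944 to 0.971 between wild type replicate 3 and each of the others. Wild type replicate 1 came next, at 0.969 to 0.976 with the mutant arrays and wild type replicate 2. The mutant arrays and wild type replicate 2 correlated with each other at 0.984 to 0.998. Since wild type replicate 3 stood furthest apart, values are given with it and without it. The arrays' number, 3 against 3, limits the precision.

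The ribosomal protein features were bright on every array. Their mean log2 intensity over the 6 arrays had a median of 13.00, with 70 of 74 genes at 12 or above and a range of 5.91 to 13.57. Probe brightness does not rank transcripts of different genes, so these levels describe the features and not the order of the messenger RNAs. The median log2 intensity over the 74 genes was 12.90, 12.86 and 12.91 in mutant replicates 1 to 3, against 12.82, 12.90 and 13.66 in wild type replicates 1 to 3. The 3 mutant arrays and the first 2 wild type arrays lay within a narrow band, and the third wild type array stood above all of them. Taken as log2 intensity minus each gene's mean over the 6 arrays, the median over the genes was -0.13, -0.14 and -0.10 in the mutant arrays, against -0.17, -0.10 and 0.65 in the wild type arrays. The large and small subunit genes shared this pattern, with medians of 0.65 and 0.64 on wild type replicate 3.

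**Figure D1:**
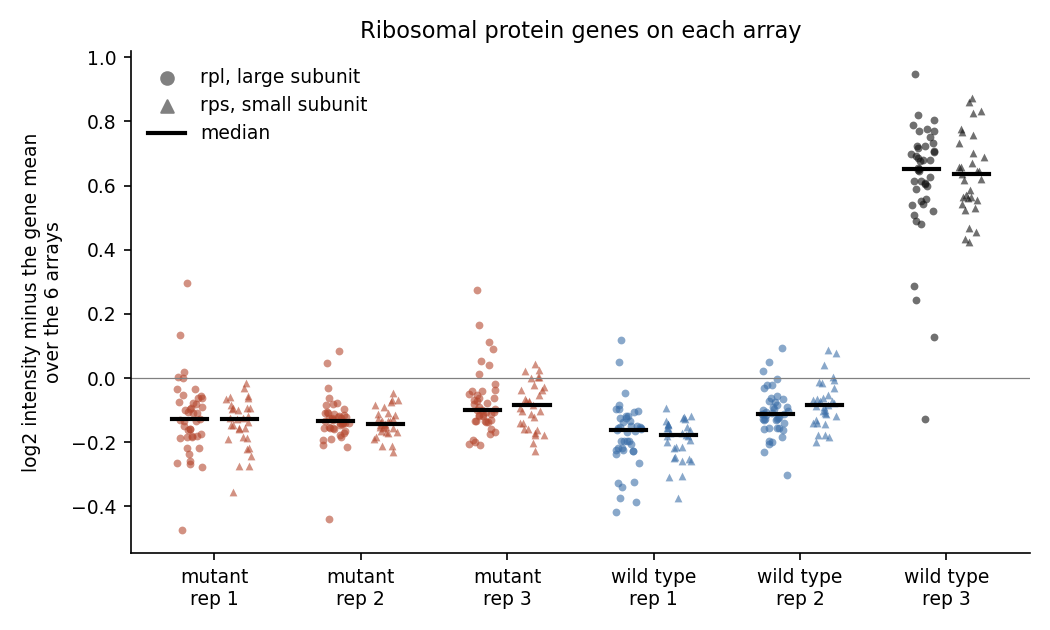
Log2 intensity of each of the 74 ribosomal protein genes minus that gene's mean over the 6 arrays, by array, with circles for the 43 large subunit genes, triangles for the 31 small subunit genes and bars for the medians. The mutant arrays and wild type replicates 1 and 2 have medians near -0.13, and wild type replicate 3 stands near 0.65 for both subunits.

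Wild type replicate 3 was the highest of the 6 arrays for 72 of the 74 genes, where 41.9% of all features tested had it highest. Its excess, the log2 intensity on that array minus the mean of the other 5, had a median of 0.77 over the genes, a 1.71-fold higher intensity, with the middle 50% of the genes between 0.67 and 0.87. The median excess over all features was 0.14. In all, 70 of the 74 genes lay at least 0.5 above the mean of the other arrays, against 21.8% of all features. The array is a single sample, so the excess has no test.

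Brightness went with the excess on that array. Other features with a mean log2 intensity of 12 to 13 (224 features) had a median excess of 0.68, and 80% of them lay between 0.22 and 1.02. Those of 13 to 14 (51 features) had a median of 0.65. The 33 ribosomal protein genes of the first band had a median excess of 0.82 and the 37 of the second 0.76. Features of middle brightness ran the other way, with a median of -0.40 at a mean of 7 to 8. Putting the 6 arrays on one common distribution by quantile normalization brought the median excess of the 74 genes to 0.055. That method gives features of the same rank the same value on every array. A small excess is therefore built in for features at the top of each array. The part that brightness had in the ribosomal protein excess was not tested.

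**Figure D2:**
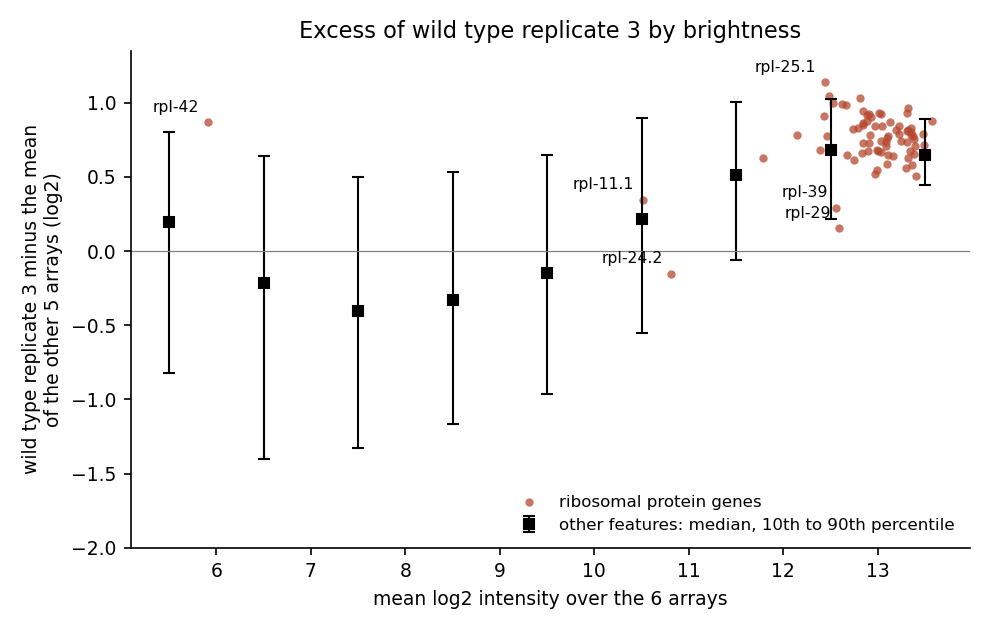
Log2 intensity on wild type replicate 3 minus the mean of the other 5 arrays (vertical axis) against the mean log2 intensity over the 6 arrays (horizontal axis). Red points are the 74 ribosomal protein genes, and black squares with bars are the median and the 10th to 90th percentile of other features in bands of 1 log2 unit; most ribosomal protein genes lie at or above the median of other features as bright, and rpl-24.2 lies below 0.

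Some marker genes of other tissues and stages were also high on that array, which was the highest of the 6 for 41.9% of all features. The 6 vitellogenin genes, yolk proteins made in the adult intestine, summed to 253 to 274 intensity units in mutant embryos, against 277, 243 and 416 in wild type replicates 1 to 3, and wild type replicate 3 was the highest array for 5 of 6. Their features were dim, with log2 intensities of 3.36 to 6.90. The 5th percentile of all features was 3.93 on wild type replicate 3, against 3.62 to 3.70 on the other arrays. Other features had a median excess of 0.19 at a mean of 5 to 6 and -0.22 at 6 to 7. Sperm genes (16 measured, mostly major sperm proteins) summed to 1335 to 1875 in mutant embryos, against 1439, 1139 and 2020 in wild type, with replicate 3 highest for 11 of 16. Oocyte and eggshell genes summed to 6552 to 7107 in mutant embryos, against 12508, 6700 and 12934 in wild type, with replicate 3 highest for 5 of 11. The oocyte sum was high on wild type replicates 1 and 3. Both arrays stood above all the others for oma-1, oma-2, cpg-1, cpg-2, puf-5, rme-2, egg-1 and egg-2. For egg-3, cbd-1 and chs-1 the order was mixed. Markers of the embryo itself were also measured. No marker gene of any list stood at 0, but with a 5th percentile of 3.62 or more on every array this does not show detection. Late epidermis genes summed to 34524 to 36620 in mutant embryos, against 35307, 35638 and 52272 in wild type, with replicate 3 highest for 4 of 5. That sum came mostly from sqt-3, dpy-17 and dpy-7, which were bright, with log2 intensities of 11.72 to 14.79. The list's median excess was 0.46, against 0.68 and 0.65 for other features with means of 12 to 13 and 13 to 14. The dim bli-1 had 5.16 on replicate 3 and 5.15 on wild type replicate 1, and rol-6 was highest on mutant replicate 1. The next 3 lists, like the oocyte genes, had shares with replicate 3 highest nearer to that of all features or below it. For the oocyte genes this share misses the rise on wild type replicates 1 and 3 together. Their median deviation from the gene mean was 0.52 and 0.43 on those arrays, against -0.37 to -0.19 on the others. Early zygotic genes summed to 2530 to 3061 in mutant embryos, against 2811, 3263 and 2986 in wild type, with replicate 3 highest for 4 of 8. Germ line genes summed to 2572 to 2849 in mutant embryos, against 2638, 2130 and 3394 in wild type, with replicate 3 highest for 3 of 5. Late muscle genes summed to 4922 to 9452 in mutant embryos, against 8646, 6469 and 8950 in wild type, with replicate 3 highest for 1 of 4 and a median excess of -0.10. The part of these tissues and stages in the ribosomal protein values was not tested.

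With all 6 arrays, the ribosomal protein genes read slightly lower in mutant than in wild type embryos, and none passed the test. The log2 difference, mutant minus wild type, was below 0 for 72 of the 74 genes, with a median of -0.25 and a range of -0.45 to 0.41. Over all 22548 features the median was -0.10 and 62.2% were below 0. By limma with Benjamini-Hochberg adjustment over all features, 0 of 74 genes had an adjusted p under 0.05, where 0.129% of all features did (29 features), and the lowest adjusted p among the genes was 0.489. At an unadjusted p under 0.05 there was 1 gene higher in mutant embryos (background 6.23%) and 0 lower (background 3.97%). The standard error of a gene's difference had a median of 0.24, as large as the median difference itself.

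The sign of the median difference rested on wild type replicate 3. Without it, 43 genes were above 0 and 31 below (58% of all features were below), the median was 0.02 and the range -0.20 to 0.45, and the difference was under 0.15 in size for 67 of the 74 genes. The median size was 0.06 over the genes and 0.15 over all features. Again 0 of 74 genes had an adjusted p under 0.05 by limma, where 0.00443% of features did, and 1 was higher at an unadjusted p under 0.05 (background 4.41%) and 0 lower (background 5.08%). The wild type arm then holds 2 arrays, and their spread is assumed to be like that of the mutant arrays. The median standard error was then 0.11. The SD over the 3 wild type arrays had a median of 0.45 and that over the 3 mutant arrays 0.06.

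**Figure D3:**
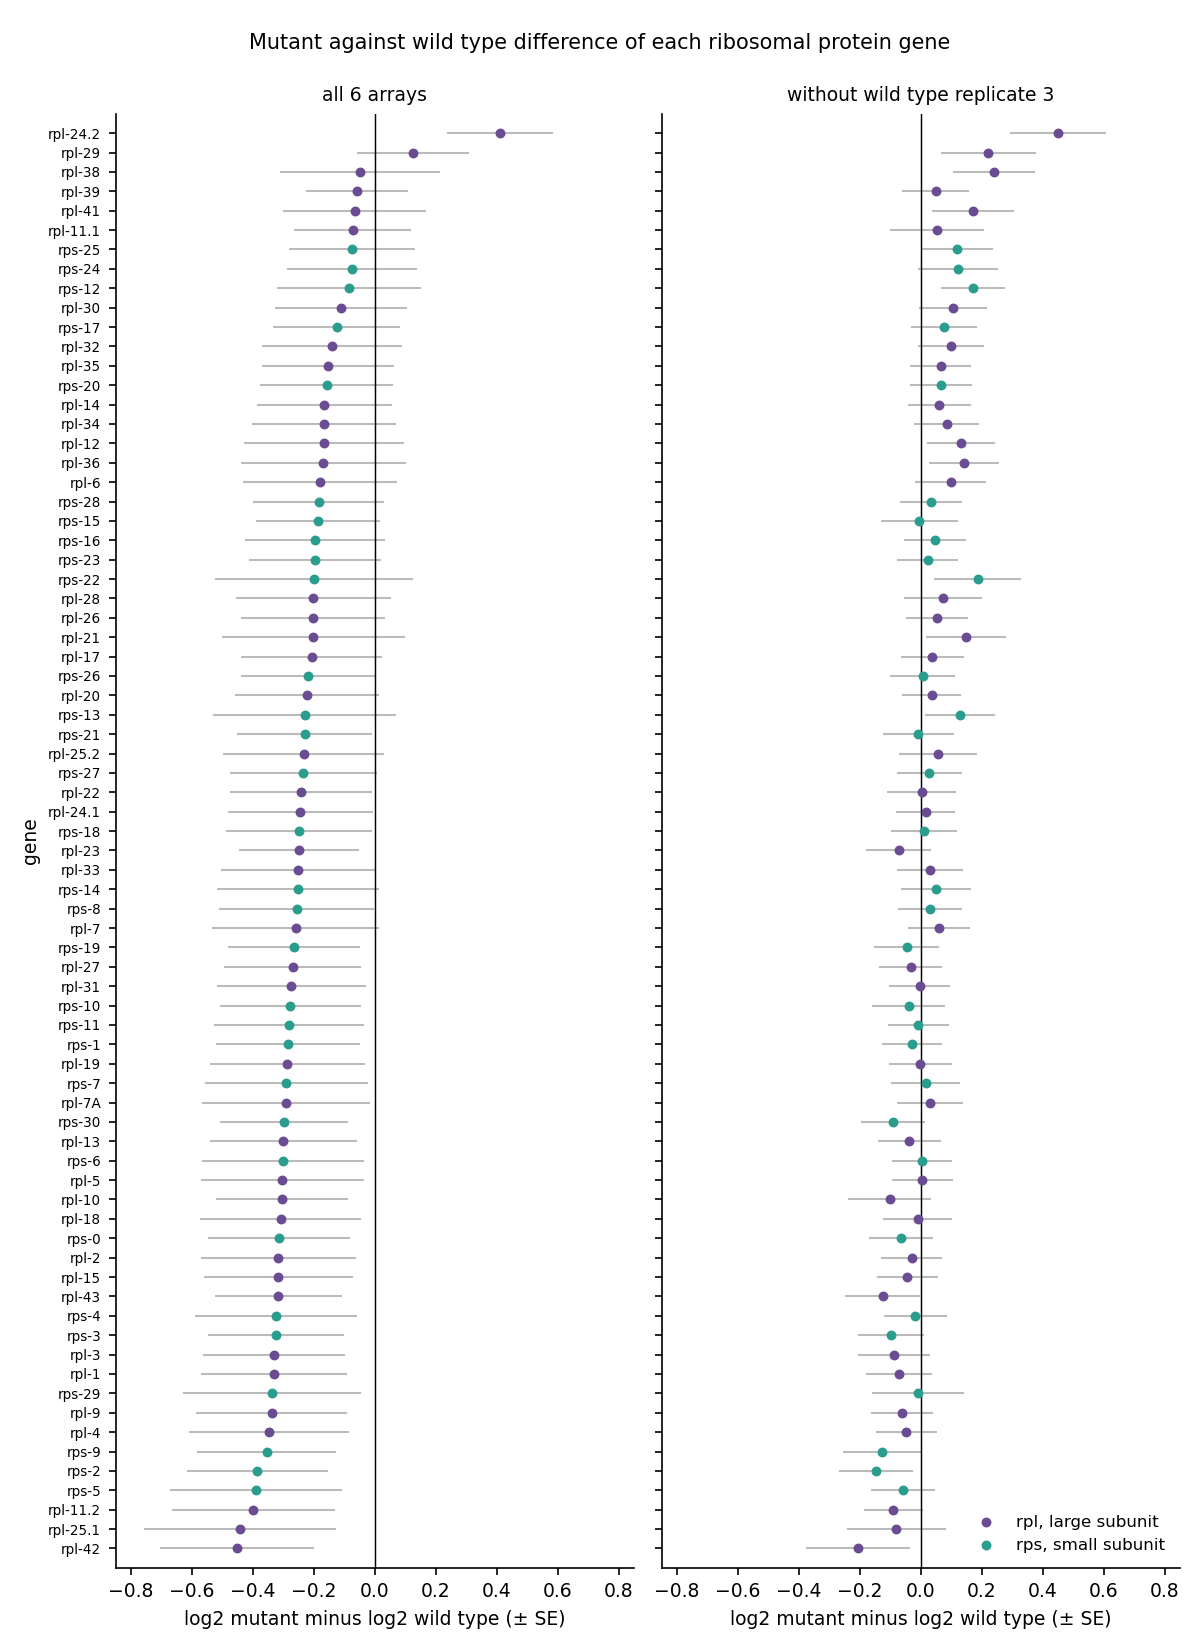
Log2 difference, mutant minus wild type, of each of the 74 ribosomal protein genes with its standard error, with all 6 arrays (left) and without wild type replicate 3 (right), genes in the same order in both panels. On the left 72 genes lie below 0, on the right 43 lie above 0 and 31 below, and rpl-24.2 is the highest in both.

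The values of the mutant and wild type arrays parted without overlap for 4 genes. The gene rpl-24.2 was higher on all 3 mutant arrays (background 6.16%), and rpl-9, rpl-11.2 and rps-30 [fau-1], whose product is made as a fusion with a ubiquitin-like protein, were lower on all 3 (background 9.37%). The protein of rpl-9 sits near the stalk base of the large subunit. Its log2 intensity was 12.94, 12.97 and 12.95 in mutant replicates 1 to 3, against 12.97, 13.06 and 13.85 in wild type. The gap between the 2 groups was far smaller than the step to wild type replicate 3, and the difference was -0.34 ± 0.25 (SE), with an adjusted p of 0.603 by limma. Without wild type replicate 3, 7 genes were higher on every mutant array (background 9.03%) and 3 lower (background 14.3%).

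The highest difference was that of rpl-24.2 [rsl-24D1], which lies on chromosome I (C03D6.8). Its counterparts in yeast and human are not parts of the finished ribosome: they bind the forming large subunit in the nucleolus and are later exchanged for the true L24 protein. The log2 intensity of rpl-24.2 was 11.11, 10.86 and 11.09 in mutant replicates 1 to 3, against 10.40, 10.74 and 10.69 in wild type replicates 1 to 3. Each mutant array exceeded each wild type array, and wild type replicate 3 lay between the other wild type arrays. The means were 11.02 ± 0.14 in mutant and 10.61 ± 0.19 in wild type embryos (SD, n = 3 each). The difference of 0.41 ± 0.17 (SE, 95% interval 0.01 to 0.81) was a 1.33-fold higher intensity, with an unadjusted p of 0.0469 and an adjusted p of 0.489 by limma, so rpl-24.2 did not pass the threshold. Without wild type replicate 3 the difference was 0.45 ± 0.16 with an adjusted p of 0.473. Wild type replicate 3 ranked 5 of 6 from the top for this gene, with an excess of -0.15, which lies among the 80% of other features with a mean of 10 to 11, between -0.55 and 0.90. It had the highest difference of the 74 genes in each of the 6 fits that left out 1 array, between 0.30 and 0.49.

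The gene rpl-24.1 [rpl-24] encodes the L24 protein of mature ribosomes. It had a log2 intensity of 13.25, 13.25 and 13.26 in mutant replicates 1 to 3, against 13.22, 13.25 and 14.02 in wild type. The first 5 arrays lay within 0.040 of each other, the narrowest band of the 74 genes, and wild type replicate 3 stood 0.77 above them. The log2 ratio of rpl-24.1 to rpl-24.2 was 2.14, 2.39 and 2.18 in mutant embryos, against 2.83, 2.51 and 3.33 in wild type. The 3 mutant ratios were below the 3 wild type ratios, by 0.66 on average (exact permutation test, two-sided, p = 0.10, the smallest that 3 against 3 can give; 0.30 adjusted over 3 pairs), and by 0.43 without wild type replicate 3.

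The array names 2 other pairs of paralogs, and each has 1 gene on the X chromosome and 1 on an autosome. These X-linked genes, rpl-11.2 and rpl-25.1, are the only ones of the 73 placed genes on the X. RPL-11 binds the large subunit with the 5S ribosomal RNA. Its X-linked gene rpl-11.2 had 12.49, 12.45 and 12.46 in mutant replicates 1 to 3, against 12.56, 12.55 and 13.49 in wild type. The autosomal rpl-11.1, on chromosome V, had 10.65, 10.33 and 10.45 in mutant replicates, against 10.56, 10.28 and 10.80 in wild type. The mutant arrays lay just under wild type for rpl-11.2 and overlapped wild type for rpl-11.1, and wild type replicate 3 was 0.99 above the other arrays for rpl-11.2 but 0.35 above them for rpl-11.1. The 2 genes differ in brightness, with means of 12.67 and 10.51. Other features had a median excess of 0.68 at a mean of 12 to 13 and 0.22 at 10 to 11. The part of brightness in the 2 steps was not tested. The mutant minus wild type differences were -0.40 ± 0.27 for rpl-11.2 and -0.07 ± 0.19 for rpl-11.1 (SE), with adjusted p-values of 0.591 and 0.859 by limma. The log2 ratio of rpl-11.1 to rpl-11.2 was higher by 0.33 in mutant embryos (exact permutation test, two-sided, p = 0.30; 0.40 adjusted over 3 pairs), and by 0.14 without wild type replicate 3.

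The other pair encodes the L23a protein at the opening of the exit tunnel. The X-linked rpl-25.1 [rpl-23A.1] had 11.96, 12.31 and 12.37 in mutant replicates 1 to 3, against 12.35, 12.24 and 13.39 in wild type. Mutant replicate 1 was the lowest and wild type replicate 3 the highest, with the largest excess of all 74 genes, 1.14. The autosomal rpl-25.2 [rpl-23A.2], on chromosome I, had 12.99, 12.85 and 12.93 in mutant replicates, against 12.99, 12.74 and 13.74 in wild type. Its mutant values lay between those of wild type replicates 1 and 2, and its excess was 0.84. The differences were -0.44 ± 0.32 and -0.23 ± 0.26 (SE), and -0.08 and 0.06 without wild type replicate 3. The log2 ratio of rpl-25.1 to rpl-25.2 differed by -0.21, mutant minus wild type (exact permutation test, two-sided, p = 0.40; 0.40 adjusted over 3 pairs), and by -0.14 without that array. Paralogs can share probes, so their values may not be separate measurements.

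**Figure D4:**
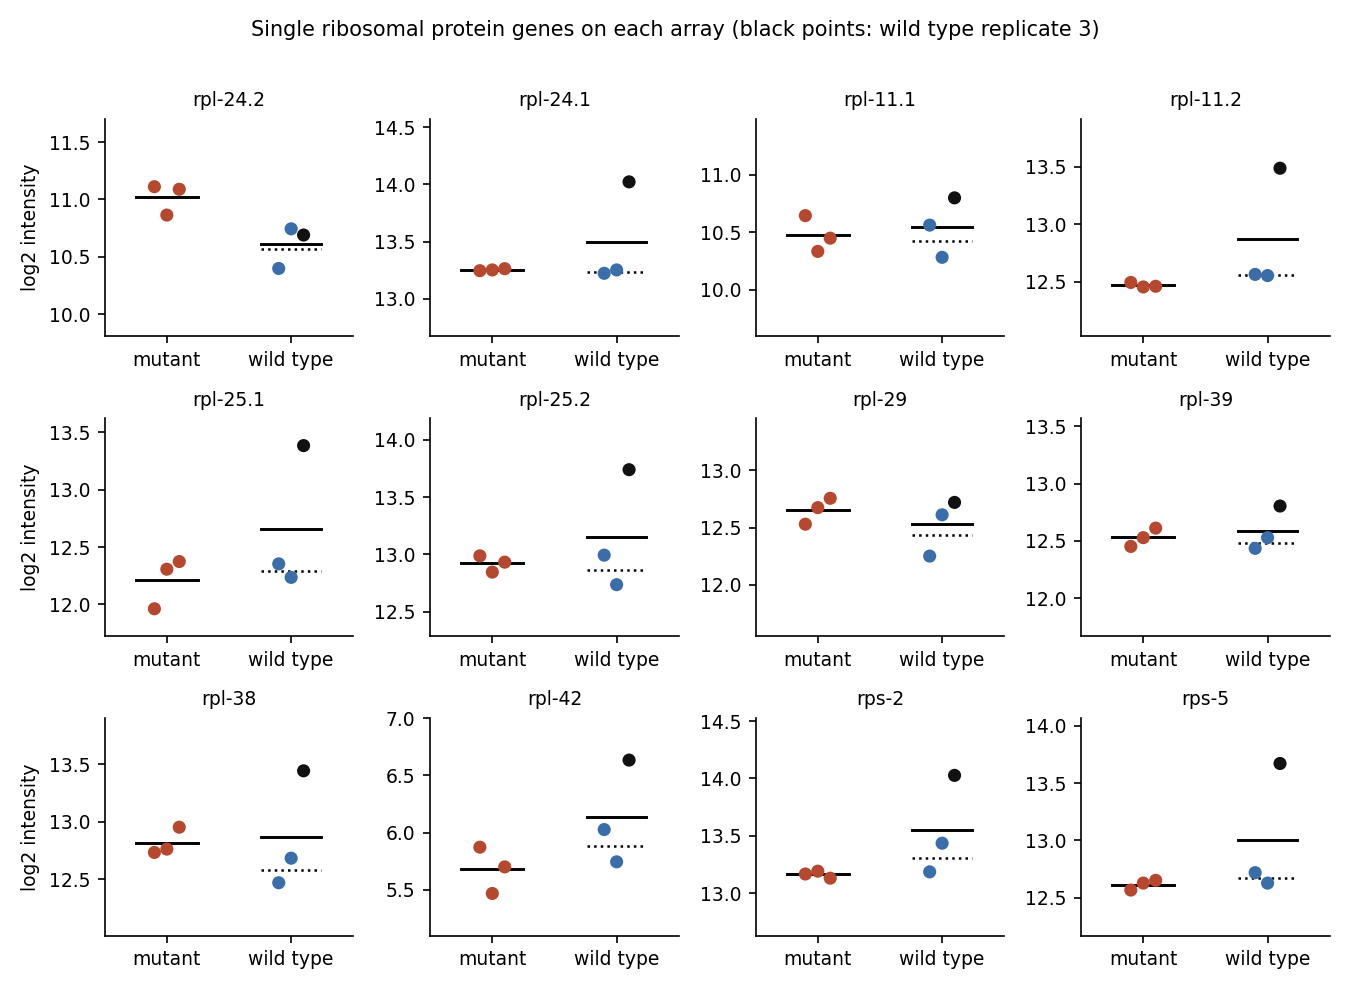
Log2 intensity of 12 ribosomal protein genes on the 3 mutant arrays (red, left) and the 3 wild type arrays (right, blue for replicates 1 and 2 and black for replicate 3). Solid bars are group means, dotted bars the wild type mean without replicate 3, and every panel spans the same number of log2 units; rpl-24.2 is the gene with all mutant points above all wild type points.

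In the large subunit, the proteins around the peptidyl transferase centre gave close values. They are encoded by rpl-2 [rpl-8], rpl-3 and rpl-10 [rpl-10L], whose differences were -0.32 ± 0.25, -0.33 ± 0.23 and -0.31 ± 0.22 (SE) with all 6 arrays and lay between -0.10 and -0.03 without wild type replicate 3. Of the 3 genes for proteins bound near the 5S RNA, rpl-5 differed by -0.30 ± 0.27, and by 0.01 without that array. The 2 stalk genes were rpl-1 [rpl-10a] and rpl-12, which encode the protein of the mobile L1 stalk and a protein at the base of the stalk that recruits elongation factors. Their differences were -0.33 ± 0.24 and -0.17 ± 0.26, and -0.07 and 0.13 without wild type replicate 3. For rpl-12 the log2 intensity was 13.22, 13.03 and 13.10 in mutant replicates 1 to 3, against 12.97, 12.99 and 13.88 in wild type, so that the mutant arrays lay just above the first 2 wild type arrays and below the third.

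The 9 genes for proteins lining the exit tunnel or its opening had a median difference of -0.23, and 0.04 without wild type replicate 3. Among them rpl-39, whose small protein lines the tunnel wall, was 1 of 4 genes with an excess under 0.5 on wild type replicate 3. Its log2 intensity was 12.45, 12.53 and 12.61 in mutant replicates 1 to 3, against 12.43, 12.53 and 12.80 in wild type. The 6 values lay close together, with wild type replicate 3 the highest at an excess of 0.29, and the difference was -0.06 ± 0.17 (SE, adjusted p of 0.869 by limma). Its neighbour on chromosome V with no protein-coding gene between them, rps-30, had an excess of 0.68. In the other directly adjacent pairs the excess was 0.74 for rps-10 and 0.77 for rpl-24.1 on chromosome I, and 0.88 for rps-14 and 0.85 for rpl-36 on chromosome III.

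The gene rpl-29, for a large subunit protein of the eukaryotic lineage, was the only other gene besides rpl-24.2 with a positive difference. It had 12.53, 12.67 and 12.76 in mutant replicates 1 to 3, against 12.25, 12.61 and 12.72 in wild type. Wild type replicate 1 was the lowest array and mutant replicate 3 the highest, and wild type replicate 3 was the second highest, at an excess of 0.16. The difference was 0.13 ± 0.18 (SE, adjusted p of 0.748 by limma), but -0.01 without wild type replicate 1, so its sign rests on that array. Other bright features of its band had an excess below 0.22 in 10% of cases.

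Similar shapes were seen for rpl-38, which in the mouse is known for its part in the translation of Hox messenger RNAs, and for rpl-41 [rpl-36A], whose protein sits at the exit site for transfer RNA. For rpl-38 the log2 intensity was 12.73, 12.76 and 12.95 in mutant replicates 1 to 3, against 12.47, 12.68 and 13.44 in wild type. For rpl-41 it was 12.62, 12.68 and 12.84 in mutant replicates, against 12.42, 12.66 and 13.26 in wild type. In both genes wild type replicate 1 was the lowest array and replicate 3 the highest. The differences were -0.05 ± 0.26 and -0.07 ± 0.24 (SE) with all 6 arrays, and 0.24 and 0.17 without wild type replicate 3, with adjusted p-values of 0.651 and 0.739 by limma. On chromosome II, 1 protein-coding gene lies between rpl-41 and rpl-42. The feature named rpl-42 is the dimmest of the set, with 5.87, 5.47 and 5.70 in mutant replicates, against 6.03, 5.75 and 6.63 in wild type. The groups overlapped, and rpl-42 had the lowest difference of all 74 genes, -0.45 ± 0.25 (SE, adjusted p of 0.557 by limma), and -0.20 without wild type replicate 3.

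All 31 small subunit genes had a difference below 0 with all 6 arrays, between -0.39 and -0.07, and 17 were above 0 without wild type replicate 3. The 13 genes for proteins of the subunit's head had a median difference of -0.20, and the other 18 one of -0.27; without wild type replicate 3 these were 0.01 and 0.01. The lowest values were those of rps-5, for a head protein next to the exit site, and rps-2 and rps-9, for proteins at the entry of the messenger RNA channel. For rps-5 the log2 intensity was 12.57, 12.63 and 12.65 in mutant replicates 1 to 3, against 12.72, 12.63 and 13.67 in wild type. For rps-2 it was 13.17, 13.19 and 13.13 in mutant replicates, against 13.19, 13.44 and 14.03 in wild type. For rps-9 it was 12.97, 12.86 and 12.92 in mutant replicates, against 12.90, 13.18 and 13.73 in wild type. In each of these genes at least 1 of the first 2 wild type arrays lay among the mutant arrays. The differences were -0.39 ± 0.28, -0.39 ± 0.23 and -0.36 ± 0.23 (SE), and -0.06, -0.15 and -0.13 without wild type replicate 3.

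Some small subunit genes had an especially large step on wild type replicate 3: rps-22 [rps-15A], for a core protein of the subunit's body, had an excess of 1.05, rps-5 one of 1.03, rps-13, for a protein that bridges to the large subunit, one of 1.00 and rps-29, for a zinc-binding head protein, one of 0.99. For rps-22 the log2 intensity was 12.21, 12.42 and 12.53 in mutant replicates 1 to 3, against 12.11, 12.29 and 13.36 in wild type. For rps-13 it was 12.47, 12.32 and 12.46 in mutant replicates, against 12.22, 12.35 and 13.36 in wild type. For rps-29 it was 12.26, 12.47 and 12.62 in mutant replicates, against 12.37, 12.55 and 13.45 in wild type. In all 3 the mutant values overlapped or exceeded those of wild type replicates 1 and 2. The differences were -0.20 ± 0.32, -0.23 ± 0.30 and -0.34 ± 0.29 (SE), and 0.19, 0.13 and -0.01 without wild type replicate 3.

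Among the 5 arrays other than wild type replicate 3, the ribosomal protein genes varied little. The range of the 5 values had a median of 0.19 log2 units over the 74 genes, against 0.50 over all features, and was under 0.2 for 44 genes and above 0.4 for 7. The small differences left were spread unevenly over the arrays. Mutant replicate 3 was the highest of the 5 arrays for 31 of the 74 genes (background 12.4%). Wild type replicate 2 was the highest for 23 (3547 of all 22548 features), so the high arrays came from both groups. Wild type replicate 1 was the lowest for 40 (background 19.4%). The median deviation from the mean of the 5 arrays was -0.01, -0.01 and 0.03 in mutant replicates 1 to 3, against -0.05 and 0.03 in wild type replicates 1 and 2. The 74 genes were not independent measurements of this order.

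Where a gene had several probe sets they gave much the same difference. In 33 genes with 2 or 3 probe sets, the highest and lowest difference lay a median of 0.04 apart, and under 0.1 apart in 28 genes. Of the 111 probe sets, 109 had a negative difference and 109 had their highest value on wild type replicate 3. The widest disagreement was in rps-9, with differences of -0.36 and -0.16. The next was in rps-18, for a head protein that touches the large subunit, with -0.25 on its bright probe set and -0.40 on a much dimmer one, and then rpl-12, with -0.29 to -0.16 over 3 probe sets. The bright probe set of rps-18 had 12.27, 12.35 and 12.39 in mutant replicates 1 to 3, against 12.26, 12.39 and 13.10 in wild type, with the first 5 arrays mixed in order.

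Other genes of translation were taken from lists to set the ribosomal proteins beside their pathway, and 0 genes of any list passed the test with all 6 arrays (background 0.129%). The 6 ribosomal or ribosome-bound proteins whose symbols fall outside the rpl and rps pattern had 6 of 6 differences below 0, a median of -0.29, and 0.01 without wild type replicate 3, which was the highest array in 6 of 6. Among them rplp-0 (rpa-0 on the array), the scaffold of the acidic stalk, had 12.80, 12.79 and 12.73 in mutant replicates 1 to 3, against 12.78, 12.83 and 13.77 in wild type. The scaffold protein gene rack-1 had 12.70, 12.81 and 12.81 in mutant replicates, against 12.93, 12.80 and 13.51 in wild type. Only wild type replicate 3 stood apart in both. The 10 elongation factor genes had a median difference of -0.16, and 0.02 without wild type replicate 3, and a median excess of 0.59, with replicate 3 highest for 8 of 10. Among them iff-2, for the factor that carries hypusine, differed by -0.30 ± 0.25 (SE) and efk-1, for the kinase of elongation factor 2, by 0.26 ± 0.23.

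The remaining lists were dimmer and had a smaller or opposite median step on wild type replicate 3. Mitochondrial ribosomal protein genes (60) had a median difference of -0.10, and -0.15 without wild type replicate 3, and a median excess of 0.01, with replicate 3 highest for 20. The 33 initiation factor genes had a median difference of -0.01, and 0.12 without that array, and a median excess of 0.26, with replicate 3 highest for 14. Genes of ribosome biogenesis and RNA polymerase I (43) had a median difference of 0.08, against -0.25 for the ribosomal proteins, and a median excess of -0.29. Without wild type replicate 3 their median difference was 0.05, against 0.02 for the ribosomal proteins. The 33 aminoacyl-tRNA synthetase genes had a median difference of 0.15, and 0.04 without that array, and a median excess of -0.40. The lists' median brightness lay between 8.95 and 10.17, so that these values and brightness cannot be told apart.

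Of the 8 genes named for the smallest p in those lists, 7 had a positive difference, and none passed the threshold with all 6 arrays. Among all features, 6.23% were higher in mutant embryos and 3.97% lower at an unadjusted p under 0.05 by limma. For nst-1, the nucleostemin needed for large subunit assembly, the log2 intensity was 10.84, 10.50 and 10.60 in mutant replicates 1 to 3, against 8.83, 10.47 and 9.31 in wild type. For rars-1 (rrt-1 on the array), the arginyl-tRNA synthetase, it was 11.15, 10.68 and 10.57 in mutant replicates, against 9.71, 10.17 and 9.70 in wild type. In both, the lowest mutant value was above the highest wild type value, with wild type replicate 2 nearest to the mutant. The differences were 1.11 ± 0.39 for nst-1 and 0.94 ± 0.22 for rars-1 (SE), with adjusted p-values of 0.445 and 0.256 by limma, and 0.99 and 0.86 without wild type replicate 3. The synthetase subunit gene fars-3 differed by 0.64 ± 0.23, eif-2A, for an initiation factor, by 0.69 ± 0.24, eif-2Bepsilon, for a subunit of the exchange factor of eIF2, by 1.25 ± 0.50, and utp-20, of the small subunit processome, by 0.84 ± 0.34 (adjusted p of 0.445 to 0.478 by limma). The mitochondrial ribosomal protein gene mrps-15 differed by 0.78 ± 0.33 and mrpl-37 by -0.49 ± 0.15 (adjusted p of 0.489 and 0.395 by limma). The calls of 5 of these genes rested on leaving out wild type replicate 2. The wild type arm then held 2 arrays, replicates 1 and 3, which had the high oocyte sums of 12508 and 12934. That sum was 6700 on replicate 2 and 6552 to 7107 in mutant embryos, and its part in the calls was not tested. In that fit 5.72% of all features were called. Because the 8 genes were named for their smallest p in these data, their share cannot be set against it. Without replicate 2, limma called nst-1 at a difference of 1.57 (adjusted p of 0.0143), rars-1 at 1.09 (0.0396) and mrps-15 at 1.18 (0.0158). It also called utp-20 at 1.25 (0.0197) and eif-2Bepsilon at 1.87 (0.0119), and 0 of the 74 ribosomal protein genes.

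**Figure D5:**
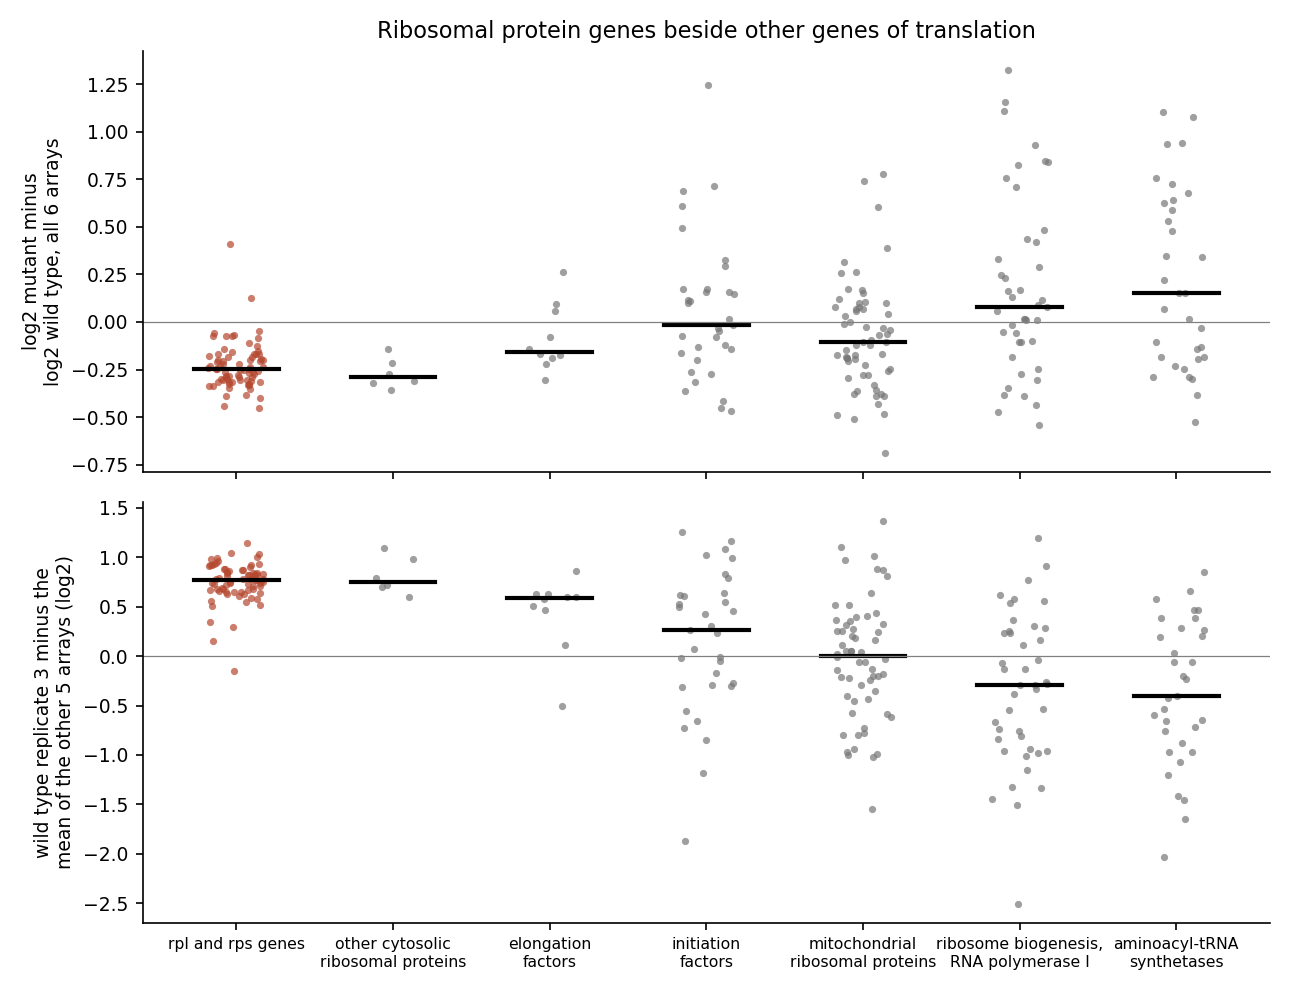
Log2 difference, mutant minus wild type, with all 6 arrays (top) and log2 intensity on wild type replicate 3 minus the mean of the other 5 arrays (bottom) for each gene of the ribosomal protein set (red) and of 6 other lists of translation genes (grey), with bars for medians. The rpl and rps genes and the other cytosolic ribosomal proteins lie together at a median excess of 0.77 and 0.75, and the synthetase and biogenesis lists have medians below 0.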

How the data were processed

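Total RNA of 3 mutant and 3 wild type embryo samples was hybridised to 1-colour Affymetrix arrays. The authors deposited linear intensity values and a table of log2 values for the same arrays, made with Affymetrix Expression Console per the submitters' processing notes. Which version and which summary method were used the sources used here do not give. The log2 of the deposited intensities differed from the log2 table by at most 5.63e-06, and no further normalization was applied. Groups were taken from the sample labels.

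All 22548 features were fitted together with limma 3.58.1 (lmFit and eBayes) in R 4.3.3, two-sided, and p-values were adjusted by Benjamini-Hochberg over the whole table, with 0.05 as the threshold. The fit was tested on simulated data. No batch is given, and replicate numbers served as a block only as an alternative. Paralogs were compared by exact permutation over the arrays. The members, lists and tests were chosen with earlier results of these data known. Genes were named where they belonged to a paralog pair, had the 6 highest or 6 lowest differences, the 4 smallest p, the 5 largest or 3 smallest excesses of wild type replicate 3 or the 3 widest probe set disagreements, and for each other list as the 2 smallest p. A few others were named for their role or position after their values were seen. Symbols rpa-1 and rpa-2 belong to replication protein genes and were not used. Gene names come from RefSeq WBcel235. The other settings tried were leaving out arrays, a replicate block, the log2 table, quantile normalization, centring, a filter on dim features, an offset, an intensity trend, array weights and other choices of probe set. The arrays' number limits the precision.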

Additional observations from a re-analysis of the deposited data

How the results depend on the processing

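No ribosomal protein gene passed the threshold with all 6 arrays or in any fit that left out 1 array, and the median difference over the 74 genes ranged from -0.41 to 0.02 in those 6 fits; it was above 0 only without wild type replicate 3. The count of genes whose groups did not overlap, 4 with all arrays, ranged from 6 to 25 in those fits, but fewer arrays part more often for any feature: the share of all features was 15.5% with all arrays and 18% to 44.5% in those fits. The count of 25 genes (33.8%), without wild type replicate 1, stood beside 22.0% of all features, and the 10 genes without replicate 2 beside 44.5%. The count was 13 genes after quantile normalization (17.6% of all features), 23 after centring on each array's median (19.6%), 7 with mutant replicates 2 and 3 averaged (19.1%) and 34 with wild type replicates 1 and 3 left out together (48.0%). On probe sets without a suffix, which only 35 of the 74 genes have, it was 1, and on averaged probe sets it was 2. The share of all features was not taken for these settings, so these counts cannot be set against the others. Centring moved the median of all features from -0.10 to -0.22, and that of the 74 genes to -0.38. The median excess of wild type replicate 3 was 0.055 after quantile normalization and 1.00 after centring.

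Array weights changed the count of called genes. Weights estimated by restricted maximum likelihood ran from 0.0955 for wild type replicate 3 to 21.1 for wild type replicate 1, but the search stopped before its tolerance was met, and the fit called 13639 of 22548 features and 11 of the 74 genes, 10 of them higher in mutant embryos. Gene-by-gene weights, chosen after seeing the data, ran from 0.143 to 4.88 and called 3608 features and 1 gene, rpl-24.2 (adjusted p of 0.0493 by limma, against 0.177 to 0.922 in the fits that left out 1 array). The median difference was 0.05 and -0.00049 under the 2 kinds of weights.

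The replicate block left the median difference at -0.25 and the count of called genes at 0, with 19 features called in all. Replicates of the same number did not deviate together: the correlation of their deviations from the group means was -0.03, 0.07 and -0.18 for numbers 1 to 3, so the numbers were not read as pairs. The block changed no call among the 74 genes. Leaving out wild type replicate 2 raised the called features to 1289, among them nst-1, rars-1, mrps-15, utp-20 and eif-2Bepsilon. The wild type arm of that fit held only the arrays with the high oocyte sums.

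Single differences changed sign in several settings, and the cause was not tested. Over the fits that left out 1 array the range was -0.21 to 0.054 for rpl-11.1, -0.32 to 0.13 for rpl-12, -0.38 to 0.016 for rpl-24.1, -0.44 to 0.057 for rpl-25.2, -0.012 to 0.22 for rpl-29, -0.25 to 0.24 for rpl-38, -0.14 to 0.049 for rpl-39, -0.25 to 0.17 for rpl-41, -0.44 to 0.13 for rps-13, -0.41 to 0.011 for rps-18 and -0.44 to 0.19 for rps-22. After quantile normalization the difference was 0.053 for rpl-11.1, 0.069 for rpl-12, 0.19 for rpl-38, 0.18 for rpl-39, 0.18 for rpl-41, 0.021 for rps-13, 0.0063 for rps-18 and 0.072 for rps-22. After centring it was -0.0029 for rpl-29. Under the first kind of weights it was 0.10 for rpl-12, 0.031 for rpl-24.1, 0.38 for rpl-38, 0.13 for rpl-39, 0.33 for rpl-41, 0.17 for rps-13, 0.10 for rps-18, 0.34 for rps-22, 0.16 for rps-29 and -0.18 for efk-1. Under gene-by-gene weights it was 0.038 for rpl-12, 0.29 for rpl-38, 0.092 for rpl-39, 0.24 for rpl-41, 0.078 for rps-13, 0.029 for rps-18, 0.24 for rps-22, 0.068 for rps-29 and -0.10 for efk-1. With wild type replicates 1 and 3 left out together it was 0.19 for rpl-11.1, 0.12 for rpl-12, 0.0013 for rpl-24.1, 0.19 for rpl-25.2, 0.13 for rpl-38, 0.0023 for rpl-39, 0.049 for rpl-41, 0.062 for rps-13, 0.10 for rps-22, -0.027 for mrps-15 and -0.0072 for eif-2Bepsilon. Of the other named gene values, 454 kept their side and direction and 22 passed the threshold only under a setting with weights or without wild type replicate 2.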

Other observations

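Some features of cytosolic ribosomal proteins carry no single rpl or rps symbol and were left out of the 74 genes. The acidic stalk gene rplp-2.1 (C37A2.7) had a log2 intensity of 12.82, 12.83 and 12.88 in mutant replicates 1 to 3, against 12.78, 13.07 and 13.53 in wild type, a difference of -0.28 ± 0.21 (SE). The gene rpl-27A (Y37E3.8) had 12.89, 12.95 and 13.01 in mutant replicates, against 12.90, 12.97 and 13.71 in wild type, a difference of -0.24 ± 0.24. A feature shared by rpl-37 and W01D2.1 had 12.91, 12.81 and 12.91 in mutant replicates, against 12.65, 12.82 and 13.27 in wild type, a difference of -0.03 ± 0.20. In each of these wild type replicate 3 was the highest array. Of 2 features shared by rpl-16 and M01F1.3, the brighter had 12.92, 13.05 and 13.02 in mutant replicates, against 13.01, 13.19 and 13.83 in wild type, with overlapping groups and a difference of -0.35 ± 0.23 (adjusted p of 0.592 by limma). The dimmer had 12.49, 12.52 and 12.54 in mutant replicates, against 12.59, 12.65 and 13.42 in wild type, so that its groups did not overlap, and differed by -0.37 ± 0.24 (adjusted p of 0.588 by limma).

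The array carries features at the 3′ and 5′ ends of control transcripts. The log2 intensity at the 3′ end minus that at the 5′ end of the ubiquitin control was 3.24, 3.16 and 3.23 in mutant replicates 1 to 3, against 3.09, 3.26 and 3.71 in wild type. For actin it was 0.59, 0.46 and 0.54 in mutant replicates, against 0.44, 0.47 and 0.33 in wild type. For gly14 it was -2.40, -2.45 and -2.43 in mutant replicates, against -2.44, -2.54 and -1.81 in wild type. For catalase it was 0.97, 0.82 and 0.91 in mutant replicates, against 0.54, 0.90 and 0.53 in wild type. For Gapdh it was 0.12, 0.08 and 0.18 in mutant replicates, against -0.11, 0.15 and 0.13 in wild type. Wild type replicate 3 was the highest array for ubiquitin and gly14, the lowest for actin and catalase, and in the middle for Gapdh. The part of RNA quality in the ribosomal protein values was not tested.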
